A study of Homo sapiens with 6 samples.

Results

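The levels of 10 plasma membrane carriers of amino acids were followed in A549-TIPARP cells and A549-GFP cells. The 10 genes are SLC7A5, SLC3A2, SLC7A1, SLC7A6, SLC1A4, SLC1A5, SLC38A1, SLC38A2, SLC6A9 and SLC43A1, taken by gene symbol from the 53826 entries of each library. All 10 were among the 13181 genes analysed, and all 10 were above 2 TPM, a share of the transcripts of a library corrected for transcript length, in all 6 libraries. A549 cells derive from a human adenocarcinoma of the lung. A549-TIPARP cells stably carry TIPARP, a mono-ADP-ribosyltransferase, from a retroviral pMXs vector, and the control A549-GFP cells stably carry GFP from the same vector. The labels list no treatment for either line, and each was sequenced in 3 mRNA libraries made from total RNA, numbered Exp1 to Exp3 in the sample titles and called replicates 1 to 3 here. Values for the 3 libraries of a line are always listed in the order of replicates 1, 2 and 3. The sources do not say whether the lines are clones or pools, nor whether the 3 libraries of a line came from separate cultures, so p-values measure only the spread between these libraries, which may be technical. The RNA comes from bulk cells, in which less RNA per cell and fewer cells with a transcript cannot be told apart.

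A cell cannot make its essential amino acids, and the glutamine, serine and asparagine that a growing tumour cell uses are also taken up from outside. Different carriers share this work. The heavy chain SLC3A2 (4F2hc, CD98) brings light chains of the SLC7 family to the cell surface, and the pair of SLC3A2 and SLC7A5 (LAT1) exchanges internal glutamine for leucine and other large neutral amino acids, which feed the nutrient-sensing kinase complex mTORC1. Glutamine itself enters through SLC1A5 (ASCT2) and the sodium-coupled carriers SLC38A1 and SLC38A2. Many of these genes are known targets of ATF4, the transcription factor of the amino acid response, whose family binds elements with the core letters TGATGNAA, and several are also known targets of MYC, which binds the E-box CACGTG.

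The promoter windows of 5 of the carriers are shown because they hold the letters of these elements. RefSeq windows on GRCh38.p14, the hg38 build that the authors name, ran from 250 bases before to 50 bases after an annotated gene start, and all 10 genes matched, with 17 windows. TGATGNAA, searched on both strands, was found in 5 of the 17 windows, one each of SLC3A2, SLC7A1, SLC1A4, SLC1A5 and SLC38A1, against 3.62% of all 35116 windows. CACGTG was found in 3 of the 17, of SLC7A5, SLC1A5 and SLC43A1, against 7.26% of all windows. The cAMP response element TGACGTCA was found in 0 of the 17, against 1.85% of all windows, and the AP-1 letters TGANTCA in 2, of SLC3A2 and SLC38A1, against 7.71%. No instance of a motif overlapped one of another. A match is a description of these letters and not a binding site. The windows follow 5′ to 3′ on the strand of the gene, with TGATGNAA or its reverse complement in capitals in the first 4 and CACGTG in capitals in the last.
SLC1A4, chr2:64989149-64989448, plus strand: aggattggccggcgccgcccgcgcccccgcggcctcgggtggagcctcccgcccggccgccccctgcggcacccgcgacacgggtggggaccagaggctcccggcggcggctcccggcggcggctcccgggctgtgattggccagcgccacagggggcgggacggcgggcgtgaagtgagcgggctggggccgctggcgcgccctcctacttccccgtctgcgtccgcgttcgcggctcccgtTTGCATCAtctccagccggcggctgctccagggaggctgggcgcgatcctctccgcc
SLC7A1, chr13:29595639-29595938, minus strand: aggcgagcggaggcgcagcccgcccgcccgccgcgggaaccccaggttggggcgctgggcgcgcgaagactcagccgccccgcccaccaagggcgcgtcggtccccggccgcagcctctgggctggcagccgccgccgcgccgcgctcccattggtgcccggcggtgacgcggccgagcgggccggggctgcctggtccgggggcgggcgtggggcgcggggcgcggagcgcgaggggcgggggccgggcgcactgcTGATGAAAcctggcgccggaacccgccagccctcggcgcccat
SLC38A1, chr12:46266467-46266766, minus strand: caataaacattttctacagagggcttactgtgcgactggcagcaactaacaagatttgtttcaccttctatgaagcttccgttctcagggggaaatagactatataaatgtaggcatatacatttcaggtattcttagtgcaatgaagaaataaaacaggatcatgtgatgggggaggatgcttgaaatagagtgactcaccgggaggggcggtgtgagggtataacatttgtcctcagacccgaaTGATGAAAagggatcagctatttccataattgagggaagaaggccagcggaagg
SLC3A2, chr11:62881449-62881748, plus strand: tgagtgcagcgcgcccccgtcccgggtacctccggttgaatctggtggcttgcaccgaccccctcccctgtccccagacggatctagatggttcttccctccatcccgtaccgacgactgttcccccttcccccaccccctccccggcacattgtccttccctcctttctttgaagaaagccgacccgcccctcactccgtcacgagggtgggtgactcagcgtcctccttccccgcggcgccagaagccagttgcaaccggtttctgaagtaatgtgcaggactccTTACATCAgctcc
SLC7A5, chr16:87869458-87869757, minus strand: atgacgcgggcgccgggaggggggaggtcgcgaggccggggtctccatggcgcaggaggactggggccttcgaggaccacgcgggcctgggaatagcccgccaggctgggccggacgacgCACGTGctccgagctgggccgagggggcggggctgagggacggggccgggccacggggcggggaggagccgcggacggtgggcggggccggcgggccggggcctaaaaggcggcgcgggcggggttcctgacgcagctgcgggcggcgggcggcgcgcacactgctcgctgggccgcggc
The windows of SLC1A4, SLC7A1 and SLC7A5 lie at the start of the canonical transcript in GENCODE release 44, and those of SLC38A1 and SLC3A2 lie at other annotated starts of these genes. SLC1A5, not shown, holds TGATGNAA and CACGTG in different windows, at the annotated starts 46784814 and 46787293. Both lie inside the gene, whose canonical start is 46788594. In the SLC1A4 window the letters begin 7 bases before the start, and in the SLC38A1 window 4 bases before it. They begin 8 bases into the transcribed part for SLC7A1 and 38 bases into it for SLC3A2. The E-box of SLC7A5 begins 130 bases before the start. The windows of SLC38A2, SLC7A6 and SLC6A9 held none of the 4 motifs.

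TIPARP was at 6.79, 11.4 and 3.68 TPM (A549-GFP) and 131, 90.5 and 123 TPM (A549-TIPARP), so the labels of all 6 libraries hold. By limma, a moderated linear model fitted to log2(TPM + 1) of all 13181 genes, TIPARP was 14.9-fold higher (adjusted p = 0.0125), and 18.9-fold higher (adjusted p = 0.0331) without A549-GFP replicate 2. With the replicate number as a block the fold was the same and the adjusted p was 0.513. The libraries were not alike in spread. Over all genes, A549-GFP replicate 2 departed from its line by a root mean square of 0.54 in log2 units, the other 5 libraries by 0.15 to 0.34, and 12.6% of all genes were more than 2-fold higher in that library than in the mean of the other A549-GFP libraries. Comparisons between the lines are therefore given with and without A549-GFP replicate 2. Endothelial markers (6 of 6) stood at the floor of the tables, a log2 TPM of 0, in all 6 libraries, as did 5 of 7 mesenchymal stromal markers, whose highest value was 2.56 TPM, while the 8 epithelial and A549 markers summed to between 21840 and 38329 TPM. The lowest of those sums was that of A549-GFP replicate 2, and the A549-TIPARP sums ran from 34140 to 37097 TPM.

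The carriers were lower on average in A549-TIPARP cells, but no difference passed the test. The mean of log2(TPM + 1) was lower in A549-TIPARP cells for 10 of 10 carriers, where 60.4% of all genes had a lower mean. By limma, adjusted p-values stayed over 0.05 for all 10 carriers, and 2 had an unadjusted one under 0.05, the partners SLC3A2 and SLC7A5, both lower. An unadjusted p-value under 0.05 with a lower mean was seen for 0.88% of all genes (2.97% with a higher mean), and under an adjusted p-value of 0.05 there was 1 lower gene of 13181, or 0.00759%, and 1 higher, which was TIPARP. The median log2 fold change of the 10 was -0.39, beside -0.06 over all genes. Without A549-GFP replicate 2 the median was -0.14, beside 0.04 over all genes, and 7 of the 10 had a lower mean, where 42.6% of all genes did. That fit, in which 0.0152% of genes were called higher and 0.00759% lower by adjusted p, again left 0 carriers with an adjusted p-value under 0.05, and 1 with an unadjusted one, SLC43A1, which was then higher in A549-TIPARP cells. An unadjusted p-value under 0.05 with a higher mean was seen for 9.3% of all genes without that library, and with a lower mean for 1.16%. When the libraries were also rescaled by median ratios, 8 of the 10 had a lower mean, SLC6A9 changing sides at -0.01, where 52.8% of all genes did. None of the 10 carriers was past 2-fold in the means of the deposited log2 TPM, in either direction, where 0.432% of genes were more than 2-fold lower and 1.53% more than 2-fold higher.

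**Figure D1:**
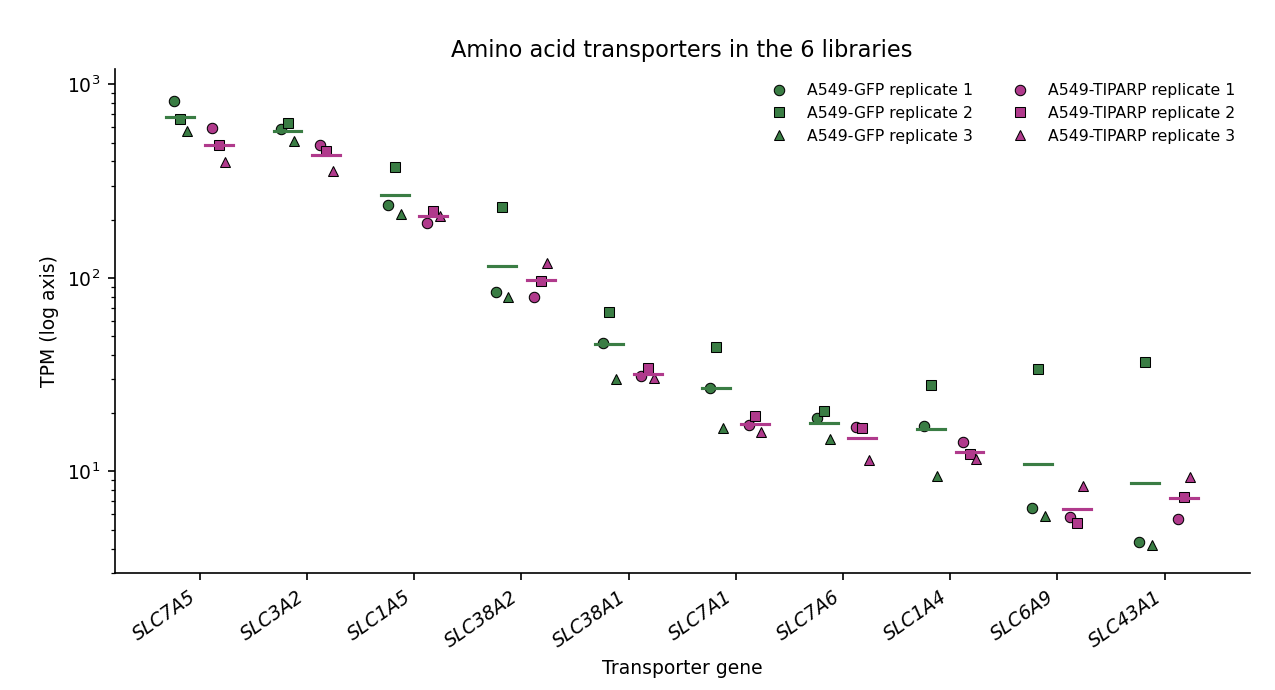
TPM (log axis) of the 10 carriers, ordered by their mean in A549-GFP cells, with 1 point per library and a horizontal line at the geometric mean of the 3 libraries of a line. The square of A549-GFP replicate 2 stands above all other points for 9 of the 10 genes, up to 36.7 TPM against at most 9.39 TPM in the other libraries for SLC43A1, and on this scale, without rescaling, SLC3A2 is the gene whose lines do not overlap.

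SLC3A2 (Entrez Gene ID 6520), the heavy chain, occupies 62856004 to 62888880 of chromosome 11 (hg38, plus strand). It was at 585, 635 and 508 TPM (A549-GFP) and 485, 454 and 358 TPM (A549-TIPARP). Every A549-TIPARP library was below every A549-GFP library, and SLC3A2 was the only 1 of the 10 carriers for which the lines did not overlap in this direction, where 3.54% of all genes were separated in the same way and 5.36% in the other. This count depended on the scaling. After rescaling by median ratios the lines were separated in this direction for 3 carriers (SLC3A2, SLC1A5 and SLC38A1), beside 5.45% of all genes, and when A549-GFP replicate 2 was also left out for 4 (these and SLC7A5), beside 16.1%. Its log2 fold change was -0.42 (standard error 0.17, 95% interval -0.82 to -0.02, limma adjusted p = 0.994), a level of 0.748 of that in A549-GFP cells. Without A549-GFP replicate 2 the log2 fold change was -0.35 (95% interval -0.76 to 0.07, adjusted p = 0.549), the unadjusted p-value was no longer under 0.05, and the lines still did not overlap, as for 6.42% of all genes.

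SLC7A5 (Entrez Gene ID 8140), the LAT1 light chain, lies on chromosome 16 from 87830023 to 87869507 on the minus strand. Its level was 820, 660 and 571 TPM (A549-GFP) and 592, 486 and 397 TPM (A549-TIPARP). The lines overlapped, since A549-TIPARP replicate 1 was above A549-GFP replicate 3, while within each replicate number the A549-TIPARP library was the lower. With the replicate number as a block the 95% interval of the log2 fold change was -0.86 to -0.09 (limma adjusted p = 0.999). The log2 fold change was -0.48 (standard error 0.20, 95% interval -0.94 to -0.01, limma adjusted p = 0.994), a level of 0.719 of that in A549-GFP cells, and -0.49 (95% interval -1.07 to 0.08, adjusted p = 0.535) without A549-GFP replicate 2, where its unadjusted p-value was no longer under 0.05. SLC7A5 was the only carrier whose highest library was not A549-GFP replicate 2. A partial copy of the gene, the pseudogene SLC7A5P2, was listed at 1.09 to 2.91 TPM, and how the authors' counting divided reads between near-identical sequences is not stated, so small shifts between the 2 entries are uncertain. SLC7A5P1 stood at this floor in all 6 libraries.

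SLC7A6 (y+LAT2), a light chain that exchanges cationic for neutral amino acids, lies on chromosome 16 from 68264516 to 68301823. It was far lower, at 18.9, 20.5 and 14.7 TPM (A549-GFP) and 16.9, 16.75 and 11.5 TPM (A549-TIPARP). The lines overlapped, and the log2 fold change was -0.25 (95% interval -0.79 to 0.28, adjusted p = 0.994) and -0.16 without A549-GFP replicate 2. The antisense gene SLC7A6OS overlaps it, and the strand setting of the authors' counting is not stated.

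Light chains that need SLC3A2 were also measured outside the 10. SLC7A7 (y+LAT1) was at 217 to 235 TPM in A549-GFP cells and at 216, 196 and 327 TPM (A549-TIPARP). SLC7A11 (xCT), which imports cystine, was at 51.6, 97.3 and 32.5 TPM (A549-GFP) and at 31.0 to 39.8 TPM in A549-TIPARP cells. Summed over SLC7A5, SLC7A6, SLC7A7 and SLC7A11, light chain TPM was 1126, 995 and 845 in A549-GFP cells and 856, 736 and 776 in A549-TIPARP cells, or 1.57 to 2.17 times the TPM of SLC3A2. SLC7A5 made up 51.2% of this sum in A549-TIPARP replicate 3, which had the lowest SLC7A5 and the highest SLC7A7, and between 66.1% and 72.8% in the other 5 libraries. The ratio of SLC7A5 to SLC3A2 was 1.40, 1.04 and 1.12 in A549-GFP cells and 1.22, 1.07 and 1.11 in A549-TIPARP cells, a ratio in which the lines overlapped.

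**Figure D2:**
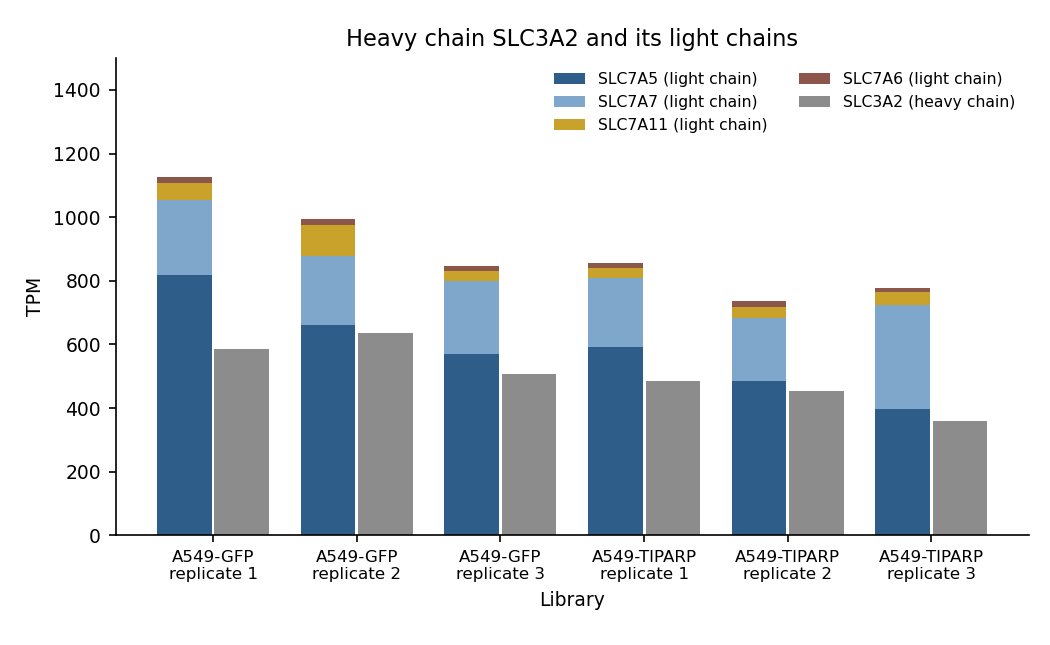
TPM of the heavy chain SLC3A2 (grey bars) and of 4 of its light chains (stacked bars) in each of the 6 libraries, on a linear axis from 0. The grey bars of the A549-TIPARP libraries (358 to 485 TPM) are all lower than those of the A549-GFP libraries (508 to 635 TPM), and in A549-TIPARP replicate 3 the SLC7A7 segment reaches 327 TPM.

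SLC43A1 (LAT3), a carrier of leucine and other neutral amino acids that needs no heavy chain, lies on chromosome 11 from 57484534 to 57515780 on the minus strand. It was at 4.32, 36.7 and 4.18 TPM (A549-GFP), so that 1 of the 3 control libraries was 8.64-fold above the geometric mean of the other 2. In A549-TIPARP replicates 1, 2 and 3 it was at 5.67, 7.35 and 9.39 TPM, above A549-GFP replicates 1 and 3 and below A549-GFP replicate 2. With all 6 libraries the log2 fold change was -0.28 (standard error 0.69, 95% interval -1.86 to 1.29, adjusted p = 0.994). Without A549-GFP replicate 2 it was 0.67 (standard error 0.22, 95% interval 0.12 to 1.21, limma adjusted p = 0.4002), a 1.59-fold higher level, and the lines did not overlap, where 21.2% of all genes had A549-TIPARP libraries all higher in that comparison. The direction of SLC43A1 thus rested on that library.

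SLC7A1 (CAT1), the main carrier of arginine and lysine, lies on chromosome 13 from 29509414 to 29595688 on the minus strand. It was at 27.1, 43.7 and 16.7 TPM (A549-GFP) and 17.4, 19.4 and 16.01 TPM (A549-TIPARP). A549-GFP replicate 3 lay within the A549-TIPARP range, and the other 2 control libraries lay above it. The log2 fold change was -0.60 (standard error 0.32, 95% interval -1.33 to 0.13, limma adjusted p = 0.994). It was -0.27 (adjusted p = 0.726) without A549-GFP replicate 2 and -0.93 (adjusted p = 0.582) when A549-GFP replicate 3 was left out instead. The spread of the control line was 0.67 (SD, n = 3, log2 scale), against 0.13 (SD, n = 3) in A549-TIPARP cells.

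The 2 exchangers of small neutral amino acids of the SLC1 family differed in level. SLC1A5 (ASCT2), whose protein the study stained to tell human cells from chick tissue, lies on chromosome 19 from 46774883 to 46788594 on the minus strand. It was at 238, 375 and 214 TPM (A549-GFP) and 193, 223 and 209 TPM (A549-TIPARP), and the lines overlapped on the deposited scale. The log2 fold change was -0.36 (95% interval -0.87 to 0.15, adjusted p = 0.994). Without A549-GFP replicate 2 it was -0.12, with an interval of -0.41 to 0.17 (adjusted p = 0.753), the narrowest of the 10. SLC1A4 (ASCT1), which exchanges serine, alanine and cysteine, lies on chromosome 2 from 64988477 to 65023865. It was at 17.1, 27.8 and 9.53 TPM (A549-GFP) and 14.2, 12.3 and 11.6 TPM (A549-TIPARP). Its control libraries span both sides of the A549-TIPARP range, and its log2 fold change went from -0.37 (95% interval -1.16 to 0.42, adjusted p = 0.994) to -0.02 (adjusted p = 0.993) without A549-GFP replicate 2 and to -0.74 (adjusted p = 0.582) with A549-GFP replicate 3 left out. SLC1A5 exceeded SLC1A4 by 13.5 to 22.5 times in TPM over the 6 libraries.

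SLC38A1 and SLC38A2 (SNAT1 and SNAT2) take up glutamine, alanine and other small neutral amino acids with sodium, and lie near each other on chromosome 12, from 46183063 to 46270017 and from 46358188 to 46372773, both on the minus strand. SLC38A1 was at 46.3, 66.8 and 30.2 TPM (A549-GFP) and 31.3, 34.1 and 30.4 TPM (A549-TIPARP). A549-GFP replicate 3 was the lowest of all 6 libraries, so the lines overlapped, which they did not after median-ratio rescaling. Its log2 fold change was -0.50 (95% interval -1.13 to 0.13, limma adjusted p = 0.994), and it was -0.22 (adjusted p = 0.737) without A549-GFP replicate 2 but -0.78 (adjusted p = 0.582) without A549-GFP replicate 3. SLC38A2, known as the member of this pair that amino acid shortage induces, was at 84.7, 232 and 79.4 TPM (A549-GFP) and 79.8, 96.8 and 120 TPM (A549-TIPARP). A549-GFP replicate 2 stood 2.83-fold above the geometric mean of the other 2 control libraries, which lay near the lowest A549-TIPARP library. The log2 fold change of SLC38A2 turned from -0.25 (95% interval -1.13 to 0.64, adjusted p = 0.994) to 0.25 (95% interval -0.22 to 0.71, adjusted p = 0.701) without that library. TPM of SLC38A2 was 1.83 to 3.95 times that of SLC38A1, lowest in A549-GFP replicate 1 and highest in A549-TIPARP replicate 3.

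SLC6A9 (GLYT1), the sodium- and chloride-coupled glycine carrier, lies on chromosome 1 from 43991500 to 44031467 on the minus strand. It was at 6.49, 34.0 and 5.92 TPM (A549-GFP) and 5.84, 5.40 and 8.38 TPM (A549-TIPARP). A549-GFP replicate 2 was 5.48-fold above the geometric mean of the other 2 control libraries, and these lay within the A549-TIPARP range. With all libraries SLC6A9 had the lowest log2 fold change of the 10, -0.71 (standard error 0.57, 95% interval -2.01 to 0.58, adjusted p = 0.994), and without A549-GFP replicate 2 it was 0.05 (standard error 0.21, adjusted p = 0.954). The protein-coding gene CCDC24, on the opposite strand, overlaps its 3′ part, and the antisense gene SLC38A2-AS1 overlaps the 5′ part of SLC38A2, so a share of reads from these partners in the values of both carriers is uncertain.

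**Figure D3:**
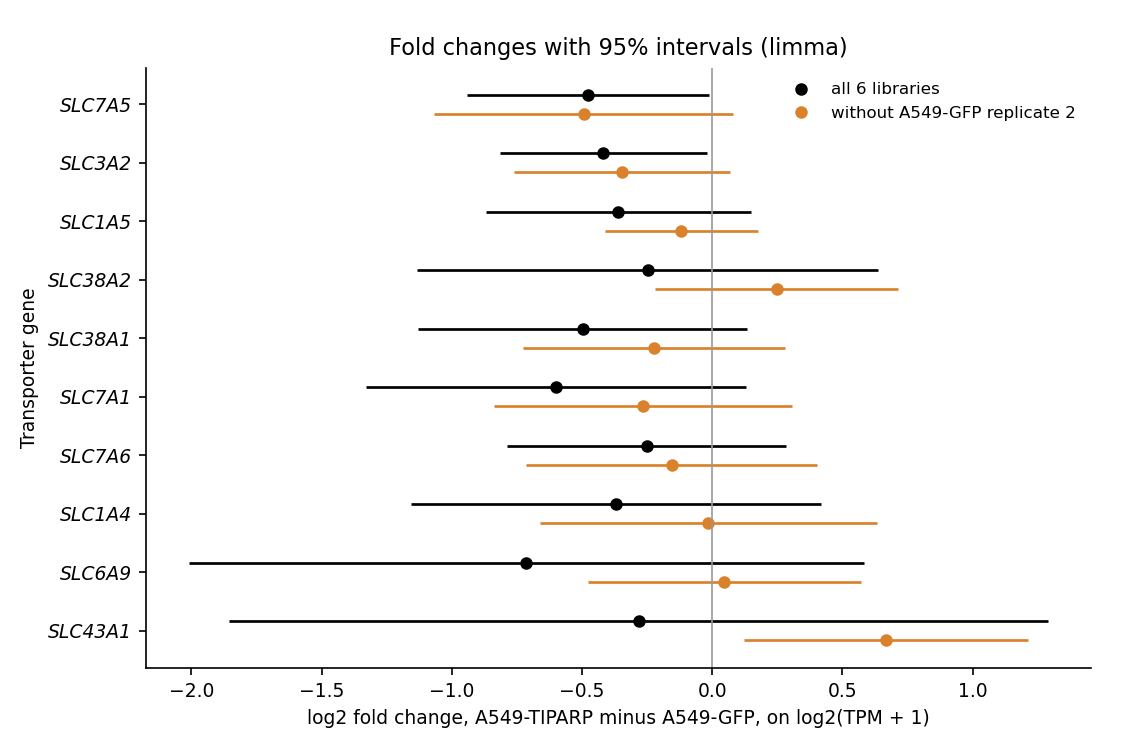
Log2 fold change (A549-TIPARP minus A549-GFP, on log2(TPM + 1)) of the 10 carriers with its 95% interval from limma, with all 6 libraries (black) and without A549-GFP replicate 2 (orange). The black points all lie under 0, and the orange points of SLC38A2, SLC6A9 and SLC43A1 lie over it, while SLC7A5 stays near -0.48 and -0.49.

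The order of the carriers by level was nearly the same in both lines. TPM is corrected for transcript length, so levels can be set side by side. In A549-GFP cells the geometric means ran from 676 TPM for SLC7A5, 573 TPM for SLC3A2 and 267 TPM for SLC1A5 through 116 TPM for SLC38A2, 45.4 TPM for SLC38A1 and 27.1 TPM for SLC7A1 to 17.8 TPM for SLC7A6, 16.5 TPM for SLC1A4, 10.9 TPM for SLC6A9 and 8.72 TPM for SLC43A1. In A549-TIPARP cells the first 8 kept this order, from 486 TPM for SLC7A5 to 12.7 TPM for SLC1A4, and SLC43A1 (7.31 TPM) stood before SLC6A9 (6.42 TPM). Leaving out A549-GFP replicate 2 kept the order of the 10 in A549-GFP cells and gave 6.20 TPM for SLC6A9 and 4.25 TPM for SLC43A1, both then below their levels in A549-TIPARP cells. SLC38A2 was then at 82.0 TPM, below its 97.5 TPM in A549-TIPARP cells. Neighbours whose libraries overlapped in both lines, with and without A549-GFP replicate 2, were SLC7A5 with SLC3A2, SLC7A1 with SLC7A6, and SLC7A6 with SLC1A4. SLC6A9 and SLC43A1 also overlapped in both lines, but not in A549-GFP cells without that library. SLC1A5 with SLC38A2, SLC38A1 with SLC7A1, and SLC1A4 with SLC6A9 overlapped in A549-GFP cells through A549-GFP replicate 2 and did not without it or in A549-TIPARP cells. SLC7A5, SLC3A2 and SLC1A5 together made up 78.3% of the TPM of the 10 in A549-GFP replicate 2 and 82.3% to 89.0% in the other libraries. The 10 summed to 1848, 2130 and 1454 TPM (A549-GFP) and to 1442, 1355 and 1172 TPM (A549-TIPARP).

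Among the control libraries the carriers formed a graded series. A549-GFP replicate 2 was the highest of all 6 libraries for 9 of the 10, and on log2(TPM + 1) it stood above the mean of A549-GFP replicates 1 and 3 by a median of 0.91 for the 10, beside 0.34 for all genes. More than 1 above were SLC43A1 (2.85), SLC6A9 (2.28), SLC38A2 (1.49), SLC1A4 (1.06) and SLC7A1 (1.0), which is 5 of 10 carriers, beside 12.6% of all genes. Next came SLC38A1 (0.82) and SLC1A5 (0.73). SLC7A6 (0.29) and SLC3A2 (0.22) were below the median of all genes, and SLC7A5 was at -0.05. The 3 heterodimer chains among the 10 thus differed least in that library, while SLC7A11, a light chain outside the 10, was at 1.23. In this order the carriers with TGATGNAA in a window were SLC1A4, SLC7A1, SLC38A1, SLC1A5 and SLC3A2, at places 4, 5, 6, 7 and 9. A549-GFP replicate 3 was below the mean of the other control libraries for all 10, by a median of -0.84 beside -0.31 for all genes, and was the lowest of all 6 for 4 of the 10. These are comparisons of single libraries, with no replicate check. The shares of all genes highest or lowest in a given library, or below the mean of the other control libraries, were not computed.

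**Figure D4:**
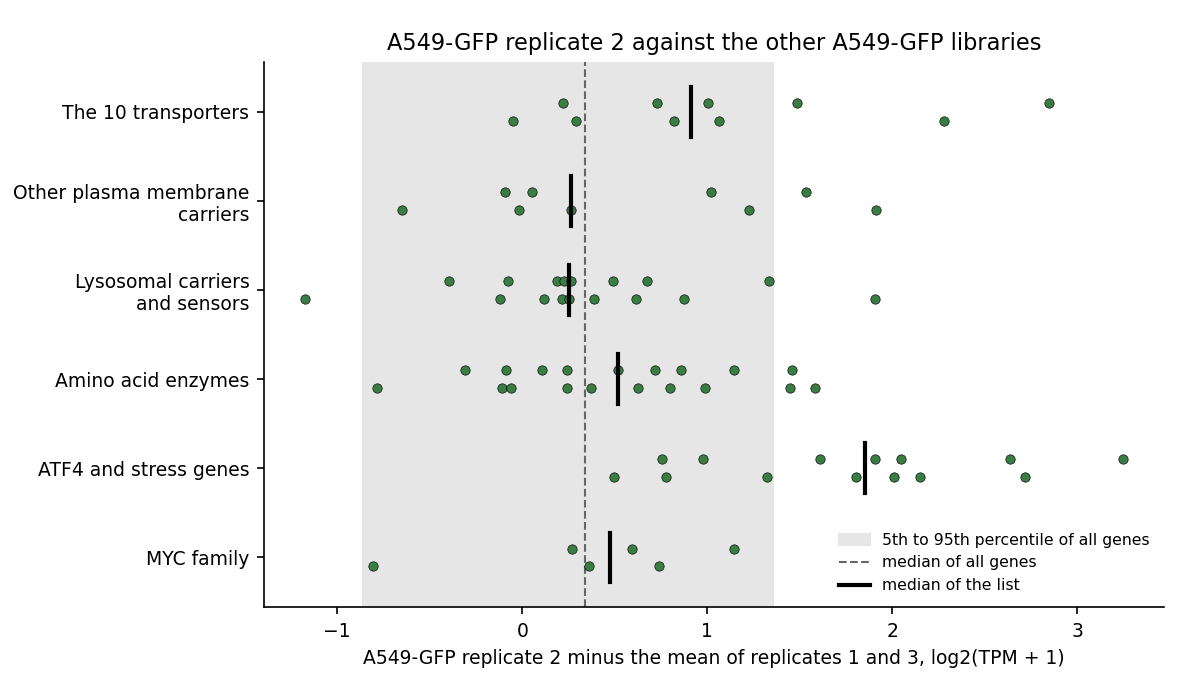
Difference between A549-GFP replicate 2 and the mean of A549-GFP replicates 1 and 3 on log2(TPM + 1), with 1 point per gene in 6 gene lists, the median of each list (black bar), and the median (dashed line) and 5th to 95th percentile (grey) of all 13181 genes. The median is 0.91 for the 10 carriers, 1.85 for ATF4 and stress genes and 0.34 for all genes.

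Stress genes of the amino acid response were also mostly highest in that library. On the list of ATF4 and 13 genes linked to it, 10 of 14 were more than 1 above the other control libraries on the log2 scale in A549-GFP replicate 2, beside 12.6% of all genes. The median difference of the 14 was 1.85, with a range of 0.49 to 3.25, beside a median of 0.34 for all genes. That library was the highest for 13 of 14, a count whose share over all genes was not computed. ATF4 was at 520, 1244 and 475 TPM (A549-GFP) and 432, 431 and 537 TPM (A549-TIPARP). CHAC1, which degrades glutathione, was at 6.57, 64.0 and 5.18 TPM (A549-GFP) and 4.93, 6.32 and 6.73 TPM (A549-TIPARP). Its deposited means made it 2.18-fold lower in A549-TIPARP cells, and ATF3, a transcription factor of the same response, 2.12-fold lower. Without A549-GFP replicate 2 the log2 fold change was 0.03 for CHAC1 and -0.32 for ATF3 on that scale. NUPR1, a stress-induced nuclear protein, was at 3.92, 27.6 and 2.86 TPM (A549-GFP) and 20.5, 13.8 and 32.3 TPM (A549-TIPARP), a deposited mean 3.09-fold higher and, without A549-GFP replicate 2, a limma log2 fold change of 2.33 (adjusted p = 0.225). DDIT4, an mTORC1 inhibitor, and the transcription factor CEBPB had log2 fold changes of -0.66 and -0.68 (limma, both adjusted p = 0.994), and of -0.40 and -0.35 without that library (adjusted p = 0.504 and 0.405). By limma, adjusted p-values were over 0.05 for all 14, with or without the library, and 2 lower and 0 higher had an unadjusted one under 0.05 with all 6, beside 0.88% lower and 2.97% higher of all genes. Without A549-GFP replicate 2 this held for 1 lower (CEBPB) and 1 higher (NUPR1), beside 1.16% lower and 9.3% higher of all genes. With all 6 libraries the lines did not overlap for 4 lower genes (ATF3, TRIB3, DDIT4 and CEBPB) and 0 higher ones, beside 3.54% lower and 5.36% higher of all genes. Without that library these were the same 4 lower genes and 2 higher ones (NUPR1 and PPP1R15A), beside 6.42% lower and 21.2% higher of all genes. Their median log2 fold change was -0.61 and became -0.01 without A549-GFP replicate 2. The part of this response in the carriers' values was not tested.

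**Figure D5:**
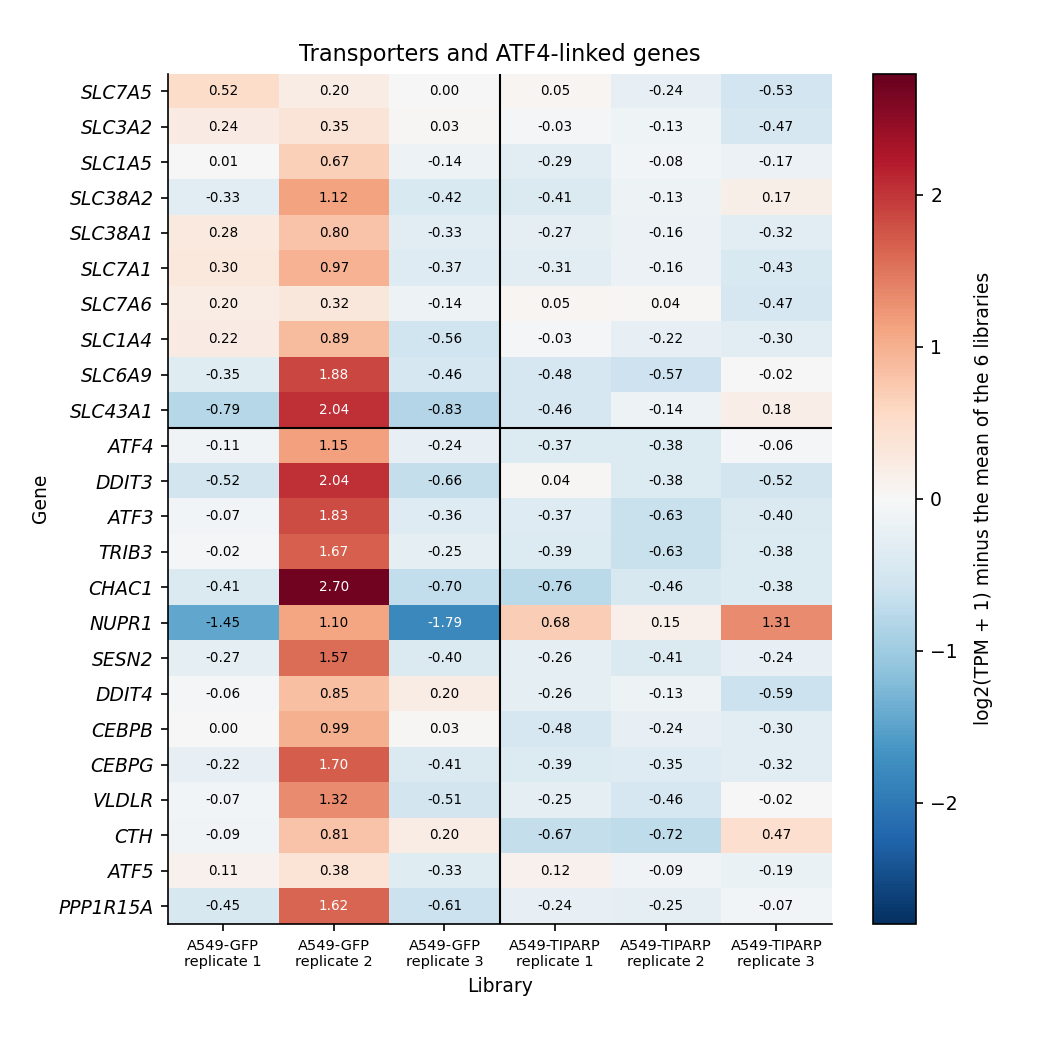
Log2(TPM + 1) of the 10 carriers (above the line) and of ATF4 and 13 genes linked to it (below the line), each minus its mean over the 6 libraries, with 1 column per library and red for values above the mean. The column of A549-GFP replicate 2 is red throughout, from 0.20 for SLC7A5 and 0.32 for SLC7A6 to 2.04 for SLC43A1 and 2.70 for CHAC1.

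The other carriers and the enzymes that use their cargo gave 0 adjusted p-values under 0.05 as well, with and without A549-GFP replicate 2. Of 26 further plasma membrane amino acid carriers, 17 stood at the floor in all 6 libraries and 9 were analysed. With all 6 libraries 6 of these had a lower mean, beside 60.4% of all genes, and 0 had an unadjusted p-value under 0.05. The median log2 fold change was -0.08, beside -0.06 over all genes. With A549-GFP replicate 2 left out 3 had a lower mean, beside 42.6% of all genes, and 0 had an unadjusted p-value under 0.05. The median turned to 0.05, beside 0.04 over all genes. The lines did not overlap for 1 higher gene with all 6 libraries, beside 5.36% of all genes. Without that library they did not for 2 higher genes and 1 lower, beside 21.2% and 6.42%. The arginine carrier SLC7A2 was the only gene of this list past 2-fold, at 5.37, 19.9 and 3.83 TPM (A549-GFP) and 3.17, 2.60 and 6.13 TPM (A549-TIPARP). Its deposited mean was 2.01-fold lower, a log2 fold change of -1.01, which went to -0.30 when A549-GFP replicate 2 was left out.

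Lysosomal carriers and amino acid sensors of mTORC1 were analysed for 17 of 18 listed entries. A lower mean was seen for 9, beside 60.4% of all genes, and a higher one for 8. Their median log2 fold change was -0.05, beside -0.06 over all genes. In the absence of A549-GFP replicate 2 only 4 had a lower mean, beside 42.6% of all genes, and the median turned to 0.03, beside 0.04 over all genes. CASTOR2, a member of the arginine sensor family, was the 1 gene with an unadjusted p-value under 0.05 in either fit. It was higher, where 2.97% of all genes were called so with all 6 libraries and 9.3% without A549-GFP replicate 2. Its level was 16.7, 15.4 and 16.8 TPM (A549-GFP) and 24.2, 19.9 and 23.9 TPM (A549-TIPARP). The lines did not overlap for CASTOR2 in either fit. With all 6 libraries it was the only gene of the list so separated, beside 5.36% of all genes higher in this way. Without A549-GFP replicate 2 it was 1 of 2, beside 21.2%. Its log2 fold change was 0.45 (limma adjusted p = 0.994) and 0.41 without A549-GFP replicate 2 (adjusted p = 0.440).

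Of 20 enzymes that make or use the carried amino acids, 19 were analysed and 13 had a lower mean, beside 60.4% of all genes. The median log2 fold change was -0.17, beside -0.06 over all genes. The lines did not overlap for 3 lower enzymes and 1 higher, beside 3.54% and 5.36% of all genes. Without A549-GFP replicate 2 they did not for 3 lower and 3 higher, beside 6.42% and 21.2%. With all 6 libraries MTHFD2, a mitochondrial enzyme of one-carbon metabolism, was the only gene of the list with an unadjusted p-value under 0.05. It was lower, and 0.88% of all genes were called lower and 2.97% higher by this measure. Its level was 227, 348 and 161 TPM (A549-GFP) and 141, 178 and 137 TPM (A549-TIPARP). Its log2 fold change was -0.63 (limma adjusted p = 0.994) and -0.34 without A549-GFP replicate 2 (adjusted p = 0.618). In that second fit 10 enzymes had a lower mean, beside 42.6% of all genes, and the median was -0.02, beside 0.04 over all genes. The unadjusted p-value was under 0.05 for 2 other genes, beside 1.16% lower and 9.3% higher of all genes. GOT1, an aspartate aminotransferase, was lower (-0.29, adjusted p = 0.440), and GLUL, glutamine synthetase, was higher (0.83, adjusted p = 0.426), from the floor of the tables in A549-GFP replicates 1 and 3 to 1.78 to 4.36 TPM in A549-TIPARP cells. Of 7 genes of the MYC family 6 were analysed and 5 had a lower mean, beside 60.4% of all genes. With all 6 libraries 0 had an unadjusted p-value under 0.05, and the median log2 fold change was -0.04, beside -0.06 over all genes. Once A549-GFP replicate 2 was removed 2 had a lower mean, beside 42.6% of all genes, and the median was 0.21, beside 0.04 over all genes. MYC itself was at 117, 60.1 and 95.7 TPM (A549-GFP) and 82.6, 72.4 and 88.6 TPM (A549-TIPARP), with A549-GFP replicate 2 the lowest of all 6 libraries. Its log2 fold change was -0.11 with all libraries (adjusted p = 0.994) and -0.38 without that library (adjusted p = 0.463), where its unadjusted p-value was under 0.05 and the lines did not overlap. In that fit 1.16% of all genes had such a p-value with a lower mean, and 6.42% were separated in this direction.

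Genes with the profile most like a carrier were sought by the root mean square difference of centred log2(TPM + 1) over the 6 libraries, where the median over all other genes was 0.39 for SLC7A5 and 0.48 for SLC38A2. Closest to SLC7A5 were its pseudogene SLC7A5P2 (0.064), PNO1 (0.082), SNORD14A (0.092), RNASEH1-AS1 (0.099) and PAK1IP1 (0.10). SLC7A5P2 was near the floor, at 1.09 to 2.91 TPM, and whether its values hold reads of SLC7A5 was not tested. PNO1 and PAK1IP1 take part in making ribosomes, and PNO1 was at 63.4, 57.2 and 46.3 TPM (A549-GFP) and 43.7, 41.6 and 30.8 TPM (A549-TIPARP). Among the carriers themselves SLC3A2 (0.14) and SLC7A6 (0.19) were closest to SLC7A5, and SLC43A1 (1.04) was farthest. Closest to SLC38A2 were LPXN (0.058), BATF2 (0.064), PDE1C (0.069), STOM (0.075) and GSAP (0.075). BATF2 (1.0 to 4.45 TPM) and PDE1C (1.78 to 7.0 TPM) were near the floor as well. STOM, a membrane scaffold protein, was at 61.3, 146 and 57.0 TPM (A549-GFP) and 58.0, 65.0 and 83.8 TPM (A549-TIPARP). The carrier nearest to SLC38A2 was SLC1A5 (0.30), and SLC7A5 (0.63) was the farthest. The 10 carriers were thus spread between a profile led by A549-GFP replicate 1 and lowest in A549-TIPARP replicate 3, that of SLC7A5, and a profile led by A549-GFP replicate 2, that of SLC43A1 and SLC6A9.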

How the data were processed

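RNA-seq tables of 3 A549-GFP and 3 A549-TIPARP libraries were used, grouped and numbered by sample title. Stranded mRNA libraries were made and sequenced for the authors, who matched paired-end reads to hg38 transcripts in Strand NGS and deposited the log2 TPM of 53826 entries per library. The version, the annotation release, the strand setting and the handling of multi-matching reads are not given in the sources used here. The lowest deposited log2 value is 0, and TPM below 1 had been set to 1. TPM keeps no depth, so the depth is unknown and no counting error is given.

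The 13181 genes that exceeded 2 TPM in at least 1 library were kept, the limit the study used. Values were turned back to TPM, a pseudocount of 1 was added, and limma 3.58.1 (R 4.3.3) (variance trend, Benjamini-Hochberg adjustment over all genes) was run on log2(TPM + 1) with line as the term. A fold change on this scale understates the change of low genes. Past 2-fold was judged on the means of the deposited log2 TPM, as in the study. The carriers and the gene lists were chosen with earlier results of these data known. All 10 carriers are named. From each other list, up to 5 genes past 2-fold and up to 5 others with an unadjusted p-value under 0.05 are named, with the 5 closest profiles to SLC7A5 and SLC38A2 and a few further light chains and stress genes (and GOT1, GLUL and MYC) chosen after their values were seen. Tables were joined in pandas 2.3.3, and the limma step was tested on simulated data. There were 13 alternatives, 6 of which leave out a library, and 1 more was added after seeing the data. Gene positions are those of GENCODE release 44, and promoter windows are from RefSeq (GRCh38.p14).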

Additional observations from a re-analysis of the deposited data

How the results depend on the processing

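No carrier had an adjusted p-value under 0.05 under any of the 14 alternatives, where it ran from 0.4002 to 1.0. The direction of the carriers' log2 fold changes was kept in 135 of 140 recomputed values. The 5 exceptions all left out A549-GFP replicate 2. Without it, the ranges over the fits that leave out 1 library reached 0.25 for SLC38A2 (from -0.52), 0.0469 for SLC6A9 (from -1.12) and 0.67 for SLC43A1 (from -0.77). Without it and with median-ratio rescaling, an alternative chosen after seeing the data, SLC38A2 was at 0.18 and SLC43A1 at 0.61. The count of carriers with an unadjusted p-value under 0.05, 2 in the report, beside 3.85% of all genes in either direction, was 1 without a filter on low values (SLC3A2, beside 4.46%), 1 with median-ratio rescaling (SLC7A1, beside 6.05%) and 0 without a variance trend (beside 4.07%). It ran from 0 to 5 with a library left out, being 5 (SLC7A1, SLC38A1, SLC1A4, SLC3A2 and SLC7A5, all lower, beside 8.23%) when A549-GFP replicate 3 was left out and 1 (SLC43A1, beside 10.5%) in the absence of A549-GFP replicate 2. It was 0 if A549-GFP replicate 1, A549-TIPARP replicate 2 or A549-TIPARP replicate 3 was missing, beside 2.42% to 3.16%, and 2 without A549-TIPARP replicate 1, beside 1.92%. It was 3 with the added alternative (SLC3A2, SLC7A5 and SLC43A1, beside 10.5%). SLC3A2 and SLC7A5 were past it in 2 of these 6 fits each. The median log2 fold change of the 10, -0.39, stayed below 0 but depended on single control libraries, at -0.14 without A549-GFP replicate 2 and -0.67 when A549-GFP replicate 3 was left out. It ran from -0.47 to -0.38 over the other fits that leave out 1 library, was -0.34 with median-ratio rescaling and was -0.20 with the added alternative. Over all genes, deviations of same-numbered libraries from their line means had correlations from -0.52 to 0.45 (mean -0.15). Those of differently numbered libraries ran from -0.65 to 0.62. With 3 libraries per line and 1 far from its line, such values cannot decide whether the numbers mark pairs. The block is therefore given only as an alternative. With the replicate block the unadjusted count stayed at 2 (beside 3.14% of all genes) and the adjusted count at 0, and the adjusted p-value of TIPARP went from 0.0125 to 0.513. Leaving out A549-GFP replicate 2 moved the median of all genes by 0.10 on the log2 scale. No count model could be used on TPM, and the unknown depth leaves the precision of the low carriers SLC6A9 and SLC43A1 open to counting error that could not be computed.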
